A study of Mus musculus with 24 samples.

Results

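Mybpc1, A2m, Otop3, P2rx2, Fndc3c1 and Srpx2 are 6 of the 22180 genes measured on 24 Affymetrix mouse arrays of sorted blood vessel cells. They were picked because their arrays from a Wnt medulloblastoma model were very bright while those from a Shh medulloblastoma model and from normal hindbrain were dim. The height of the Wnt values over both other groups is therefore how the genes were chosen and is given below as a description, without a test. Each gene was found by its symbol and is represented by a single probe set, Mybpc1 on chromosome 10, A2m on 6, Otop3 on 11, P2rx2 on 5 and both Fndc3c1 and Srpx2 on X.

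Of the 6 proteins, P2rx2 and Otop3 are ion channels: P2rx2 is a subunit of ATP-gated cation channels, and Otop3 belongs to the otopetrins, which carry protons. A2m (alpha-2-macroglobulin) and Srpx2 are secreted. A2m traps proteases and is taken up by cells through the receptor Lrp1, and Srpx2 is a sushi repeat protein that binds the urokinase receptor and has been tied to blood vessel growth and to synapse formation. Mybpc1 is the slow-type myosin binding protein C of the skeletal muscle thick filament. Fndc3c1 carries fibronectin type III domains. Medulloblastomas are tumours of the cerebellum and brainstem. Those driven by beta-catenin are known for leaky vessels and for secreting inhibitors of the Wnt pathway, and activated beta-catenin also induces its own feedback inhibitors.

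The 3 groups held 8 arrays each, which the labels call biological replicates without saying whether each was 1 animal or a pool, and all mice had a mixed strain background. Hindbrain came from adult wild-type mice. The Shh tumours arose in mice with 1 lost copy of Ptch and no Ink4c (Ptch+/-; Ink4c-/-). The Wnt tumours arose in mice with the Blbp-Cre transgene, a single Ctnnb1 allele whose exon 3 is flanked by loxP sites, Trp53 flox/flox and Pik3ca +/flox. The Blbp (Fabp7) promoter drives Cre in neural progenitors and radial glia, so the alleles are recombined in that lineage, and the sorted vessel cells need not carry the change. The age of the mice with tumours is not given in the sources used here. After papain digestion, antibodies to Cd144 (Cdh5) and Cd105 (Eng), surface proteins of endothelium, were used to pull cells onto magnetic beads. The mean log2 value of Cdh5 was 12.41 in Wnt arrays against 12.82 in hindbrain and 12.89 in Shh, and that of Eng 12.09 against 12.83 and 12.71, so both sorted antigens were bright in every group. Hindbrain arrays 4 and 6 held both Xist (12.24 and 12.15), which marks female tissue, and the Y-linked Kdm5d (6.72 and 6.65), unlike the other arrays.

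Promoter sequences show what is written just upstream of genes that were bright together. RefSeq (GRCm38.p6) gave 250 bases before the first base of the transcript for 4 of the 6 genes, Mybpc1, Otop3, Fndc3c1 and Srpx2, and they are shown in lower case from 5′ to 3′ on the strand of the gene. The windows were searched on both strands for 6 words. CTTTGAT and its variant CTTTGAA, with the first 6 letters in common, stand for TCF and LEF factors, the partners of beta-catenin. The word CATTCCA stands for TEAD factors and the word TGGGTGG for GLI factors. The core promoter words were the TATA box, searched as TATAAA, and the CCAAT box. Capitals mark every match.
Otop3 (plus strand, chr11:115334481-115334730): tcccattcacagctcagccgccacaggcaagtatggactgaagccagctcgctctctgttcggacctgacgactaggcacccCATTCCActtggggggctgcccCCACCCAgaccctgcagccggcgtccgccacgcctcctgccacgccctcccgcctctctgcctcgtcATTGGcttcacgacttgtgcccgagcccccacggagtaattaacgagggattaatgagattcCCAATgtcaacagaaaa
Srpx2 (plus strand, chrX:133908175-133908424): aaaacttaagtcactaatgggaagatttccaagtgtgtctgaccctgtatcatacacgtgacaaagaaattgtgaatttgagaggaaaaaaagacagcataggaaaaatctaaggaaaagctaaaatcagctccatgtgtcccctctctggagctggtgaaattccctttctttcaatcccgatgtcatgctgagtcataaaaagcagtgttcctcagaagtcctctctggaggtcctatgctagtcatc
Mybpc1 (minus strand, chr10:88605153-88605402): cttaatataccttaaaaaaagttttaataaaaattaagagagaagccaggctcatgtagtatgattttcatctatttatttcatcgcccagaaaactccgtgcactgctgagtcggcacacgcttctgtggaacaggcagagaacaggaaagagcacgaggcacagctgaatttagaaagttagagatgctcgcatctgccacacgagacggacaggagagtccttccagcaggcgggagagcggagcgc
Fndc3c1 (minus strand, chrX:106485230-106485479): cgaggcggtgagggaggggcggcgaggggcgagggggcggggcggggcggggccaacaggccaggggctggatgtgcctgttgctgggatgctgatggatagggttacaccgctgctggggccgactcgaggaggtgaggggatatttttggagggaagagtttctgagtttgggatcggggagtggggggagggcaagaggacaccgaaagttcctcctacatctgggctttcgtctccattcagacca
Only the Otop3 window held any of these words. Its TEAD word started 168 bases upstream of the transcript start. The GLI word stood 146 bases upstream on the other strand, where it reads CCACCCA in the line shown. The CCAAT box occurred on the other strand 79 bases upstream, read there as ATTGG, and on the gene's strand 17 bases upstream. None of these overlapped another. Among the 32851 windows of the same length in the table, the TEAD word was in 3.69%, the GLI word in 8.11% and the CCAAT box in 33.8%. The TCF and LEF words, found in 3.21% (CTTTGAT) and 4.46% (ending in AA) of all windows, and the TATA box, found in 12.4%, were in none of the 4 shown. Base composition ran from 41.2% G and C in Srpx2 and 46.4% in Mybpc1 to 60.8% in Otop3 and 64% in Fndc3c1, around a median of 52.4%, so the 4 windows had neither a word of these nor a composition in common. A match is a description of letters, and factor binding was not measured.

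Values below are the deposited log2 values, on which a difference of 1 is a 2-fold change, and values of different probe sets are not compared with each other. Array medians lay between 5.97 and 6.18. ERCC controls do not match mouse genes: of 92 such probe sets, the median signal was 3.96, and 95% had means at or below 5.24, called the control level here. In bulk samples such as these, fewer cells of a type and less RNA per cell cannot be told apart.

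Of the channels, P2rx2 had lowest, median and highest log2 values of 4.93, 5.03 and 5.38 in hindbrain, 4.86, 5.26 and 5.997 in Shh, and 9.11, 10.89 and 11.99 in Wnt arrays. It lay above the control level in 3 of 8 hindbrain, 4 of 8 Shh and 8 of 8 Wnt arrays, so outside the Wnt tumours its signal was near that of control sequences. Differences from a group with arrays at or below that level are lower bounds, for which each such array is taken at the control level. The Wnt mean of P2rx2 (10.73 ± 0.97, SD, n = 8) was at least 44-fold above hindbrain and at least 40.2-fold above Shh, where the measured means differed by 5.62 ± 0.29 (SE) and 5.46 ± 0.29 on the log2 scale. Otop3 ran through 5.77, 6.13 and 6.39 in hindbrain, 5.42, 5.72 and 6.48 in Shh, and 10.77, 11.33 and 11.83 in Wnt arrays. Its Wnt mean (11.31 ± 0.35) was 5.19 ± 0.15 above hindbrain and 5.49 ± 0.15 above Shh. These were the smallest standard errors of the 6 genes, because Otop3 varied little within any group.

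Of the secreted proteins, A2m had values of 6.49, 7.30 and 8.13 in hindbrain (lowest, median, highest), 6.37, 7.21 and 10.91 in Shh, and 13.27, 13.42 and 13.64 in Wnt arrays. The Wnt arrays were nearly level for A2m (SD 0.14), and the Shh arrays were the least so of any group of the 6 genes (SD 1.53), with array 4 at 10.91 and array 8 at 8.89. The Wnt mean was 6.11 ± 0.44 above hindbrain and 5.73 ± 0.44 above Shh, and 2.36 still separated the lowest Wnt array from the highest Shh array. The highest deposited value of any probe set on any array was 14.01, so the Wnt values of A2m lay near the top of the scale. Srpx2 had 6.34, 6.88 and 7.19 in hindbrain, 7.28, 7.93 and 8.87 in Shh, and 12.30, 12.76 and 12.84 in Wnt arrays. It was 5.79 ± 0.19 above hindbrain but 4.60 ± 0.19 above Shh, since its Shh arrays were not at the hindbrain level.

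Mybpc1, the muscle protein, had values of 4.92, 6.10 and 7.10 in hindbrain, 4.67, 5.32 and 7.39 in Shh, and 11.53, 11.88 and 12.43 in Wnt arrays. Its Wnt mean (11.93 ± 0.34) was 5.85 ± 0.35 above hindbrain and 6.34 ± 0.35 above Shh. With 6 of 8 hindbrain and 4 of 8 Shh arrays above the control level, that is at least 56-fold and at least 70.6-fold. Fndc3c1 had 4.42, 4.65 and 5.35 in hindbrain, 4.40, 5.02 and 5.63 in Shh, and 9.19, 10.30 and 11.38 in Wnt arrays. Only 1 hindbrain array and 4 Shh arrays of Fndc3c1 passed the control level, against all 8 Wnt arrays. Its Wnt mean (10.30 ± 0.98) was at least 33.2-fold above hindbrain and at least 31.3-fold above Shh, with differences of the measured means of 5.54 ± 0.31 and 5.27 ± 0.31. For each of the 6 genes every Wnt array was above every Shh and hindbrain array. Over all genes that was so for 4.12% (10.6% against hindbrain alone and 5.8% against Shh alone), and nothing is read from the count of 6, since the genes were chosen for it.

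**Figure D1:**
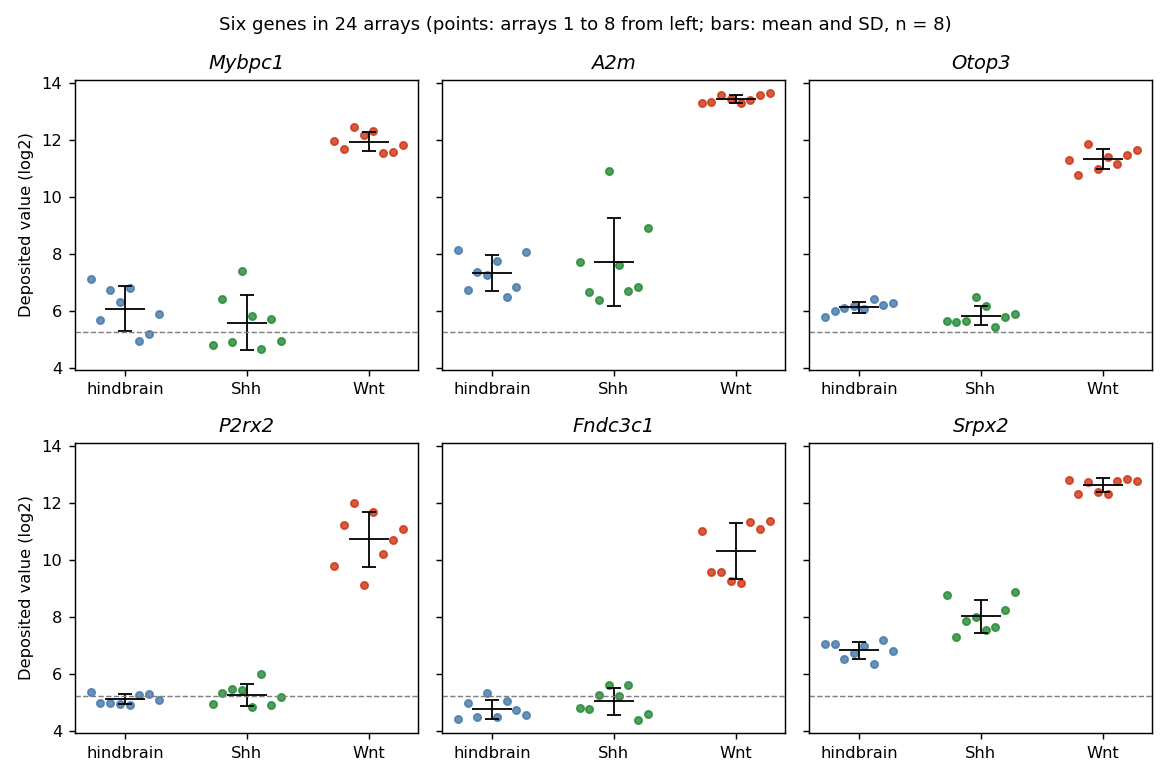
Deposited log2 values (vertical axis) of the 6 genes in the 8 hindbrain, 8 Shh and 8 Wnt arrays, each point 1 array, with the group mean and SD as bars and the control level of 5.24 as a dashed line. Every Wnt array lies above every other array, Shh array 4 stands high for A2m, and Srpx2 in Shh lies above hindbrain.

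By the smaller of the measured differences against hindbrain and Shh, 33 genes reached at least 4, among them all 6. The values were 5.85 for Mybpc1, 5.73 for A2m, 5.46 for P2rx2, 5.27 for Fndc3c1, 5.19 for Otop3 and 4.60 for Srpx2. No order is read from them, since Mybpc1, P2rx2 and Fndc3c1 had hindbrain and Shh arrays at or below the control level. The lower bounds were 5.81 for Mybpc1 (against hindbrain), 5.33 for P2rx2 (against Shh) and 4.97 for Fndc3c1 (against Shh). Other genes with such differences were Wif1 (6.27), which encodes a secreted Wnt inhibitor, Wnt16 (6.15), a Wnt ligand, Crym (4.98), Fzd10 (4.94), a Wnt receptor, and Tacr3 (4.92).

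Shh and hindbrain arrays were both dim by choice, but the direction between them was not part of the choice and was tested over all genes with limma. Srpx2 was higher in Shh than in hindbrain by 1.19 ± 0.19 (95% interval 0.81 to 1.58, 2.29-fold, adjusted p = 1.81e-05), and the lowest Shh array was 0.0964 above the highest hindbrain array, a separation found for 7.13% of all genes. It was the 1 of 6 called in this comparison, in which 37.8% of all genes were called and 18.9% were called higher, so the count is below the background. Leaving out any single array left Srpx2 between 1.07 and 1.30. Shh arrays 8 and 1 had the highest Srpx2 values (8.87 and 8.78). The mean log2 value of 10 fibroblast markers was also highest in Shh array 8. It ran from 8.55 to 9.66 in Shh against 7.51 to 8.10 in hindbrain, and 7 of the 10 markers were called higher and 1 lower. The part of fibroblast RNA in the Srpx2 difference was not tested.

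The other 5 genes did not pass the threshold between Shh and hindbrain. Their differences were -0.49 ± 0.35 for Mybpc1 (adjusted p = 0.279), -0.29 ± 0.15 for Otop3 (0.116), 0.38 ± 0.44 for A2m (0.538), 0.27 ± 0.31 for Fndc3c1 (0.518) and 0.16 ± 0.29 for P2rx2 (0.702). The intervals were wide for A2m (-0.54 to 1.30) and Mybpc1 (-1.20 to 0.22), so changes of about 2-fold are within them. Otop3 was called lower when Shh array 4 was left out (-0.39, adjusted p = 0.0273) and when arrays were shifted to the same median over genes (-0.38, adjusted p = 0.0429). Shh array 4 was the highest Shh array for A2m (10.91), Mybpc1 (7.39) and Otop3 (6.48). It was also the highest Shh array in the mean of 9 beta-catenin feedback genes, at 9.01. That level is under the lowest Wnt array (10.20). Shh array 2, the next highest for Mybpc1 (6.41), had the lowest Shh mean of these genes (8.45). Among 10 sarcomere genes of muscle, listed below, Acta1 was 9.09 in Shh array 2 and 8.53 in array 4, and Myh3 5.53 and 5.48. Ttn, Tnni1 and Actn2 were highest in Shh array 2, and Myh7, Tnnt1, Tnnc1, Myl2 and Myl3 in other Shh arrays. The part of feedback or muscle genes in the high values of array 4 was not tested.

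The level of the endothelium itself ran the other way from the 6 genes. The mean of 16 endothelial markers was 10.32 ± 0.46 in Wnt arrays against 11.22 ± 0.11 in hindbrain and 11.17 ± 0.19 in Shh (SD, n = 8). Of the 16 markers, 14 were called lower in Wnt than in hindbrain (median difference -0.85) and, counted separately, 14 were called lower than in Shh (median difference -0.94). The highest Wnt array (10.82) lay below the lowest Shh array (10.92), so tumour group and endothelial level cannot be told apart across groups. Within the Wnt group the marker mean spanned 9.60 (array 8) to 10.82 (array 4), with array 1 (9.76) next to the lowest, and this range was used to ask how each gene varied with endothelial level.

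None of the 6 genes had a slope on the endothelial mean that passed the threshold within the 8 Wnt arrays, where 0.663% of all genes did (147 genes). That count fell to 0 without Wnt array 1 or 8, and to 85, 42 and 35 without arrays 7, 4 and 5, so it rests on single arrays. The slope, in log2 units of the gene per log2 unit of the marker mean, was 0.19 ± 0.26 for Mybpc1 (adjusted p = 0.734), -0.12 ± 0.13 for A2m (0.677), -0.32 ± 0.24 for Otop3 (0.547) and -0.34 ± 0.16 for Srpx2 (0.326). Their 95% intervals were -0.38 to 0.77 for Mybpc1, -0.41 to 0.17 for A2m, -0.87 to 0.24 for Otop3 and -0.70 to 0.015 for Srpx2. The Wnt values of A2m lay near the top of the scale, and its part in the slope of that gene was not tested. P2rx2 had -0.093 ± 0.71 (adjusted p = 0.961), with the widest interval (-1.71 to 1.52). Fndc3c1 had the steepest slope, -1.46 ± 0.53 (interval -2.66 to -0.25, adjusted p = 0.241). It passed the threshold, at -1.87 (adjusted p = 0.0434), when Wnt array 6 was left out.

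Exact two-sided permutation tests of Pearson's r and Spearman's rho gave no relation that passed after Benjamini-Hochberg adjustment over the 18 computed (6 genes in 3 groups, 8 arrays each). A2m in hindbrain had r = 0.739 (exact p = 0.0229, adjusted 0.206) and rho = 0.714 (exact p = 0.0576), and r fell to 0.42 without arrays 6 and 8. Fndc3c1 in Shh had r = 0.876 (exact p = 0.015, adjusted 0.206) and rho = 0.786 (exact p = 0.0279), but 4 of those 8 arrays were at or below the control level. In Wnt arrays the relations with the smallest p were those of Fndc3c1 (exact p = 0.0743 for r and 0.0576 for rho, adjusted 0.362 and 0.312) and Srpx2 (exact p = 0.0805 and 0.0694, adjusted 0.362 and 0.312), both negative. The Wnt values of both genes fell into separate sets, described below, so no pooled r is given for them, and their slopes above run across those sets.

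**Figure D2:**
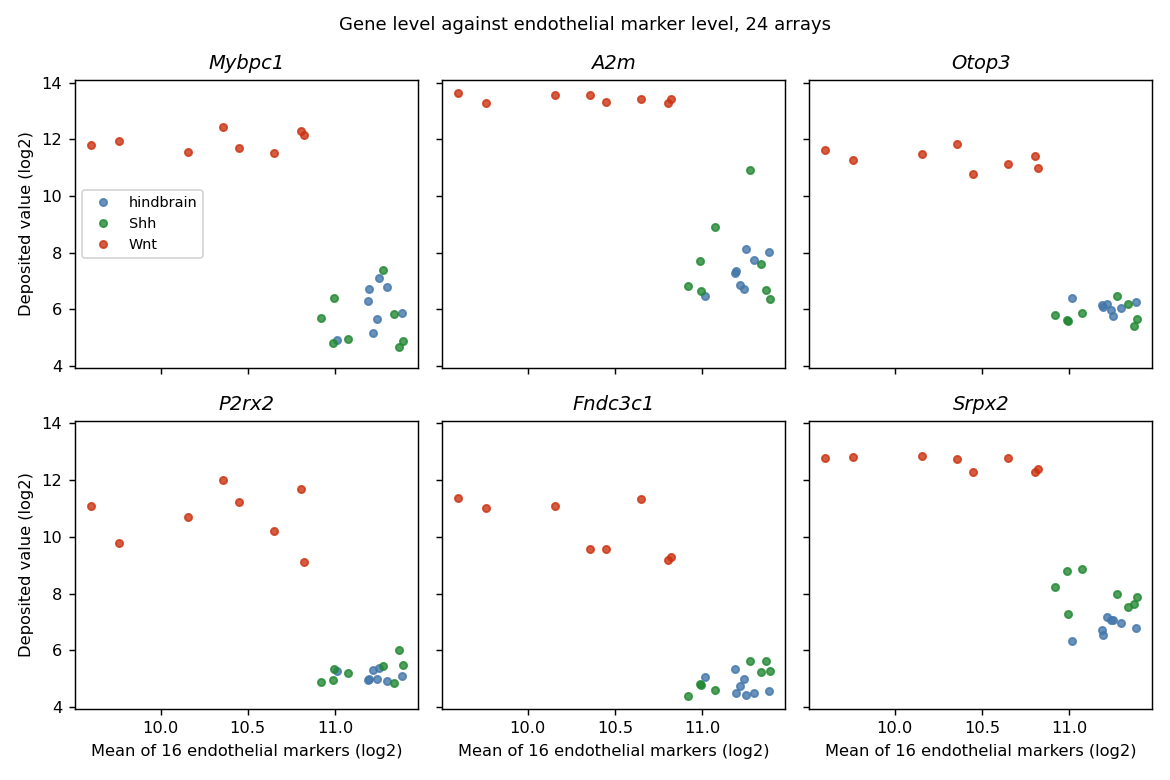
Deposited log2 value of each gene (vertical axes) against the mean log2 value of 16 endothelial markers (horizontal axes), 1 point per array, coloured by group. Wnt arrays lie to the left, at 9.60 to 10.82, and high in every panel, and within them A2m is nearly flat while the Fndc3c1 points split into 2 sets.

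Without Wnt arrays 1 and 8, the lowest in endothelial markers, the differences from Shh were 6.36 for Mybpc1, 5.72 for A2m, 5.44 for Otop3, 5.55 for P2rx2, 4.97 for Fndc3c1 and 4.54 for Srpx2. With the endothelial mean as a covariate in the fit to all arrays they were 6.57, 5.86, 5.29, 5.51, 4.46 and 4.26. Fndc3c1 moved most, from 5.27 to 4.46. Nothing is read from the unchanged signs, since the genes were chosen for large differences. The covariate does not overlap between Wnt and the other groups, so this fit extrapolates.

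Among the Wnt arrays themselves Fndc3c1 fell into 2 sets of 4 arrays, with arrays 2, 3, 4 and 5 between 9.19 and 9.57 and arrays 1, 6, 7 and 8 between 11.02 and 11.38, a gap of 1.45. Srpx2, the other gene on the X chromosome, had arrays 2, 4 and 5 at 12.30 to 12.40 and the other 5 at 12.74 to 12.84, a gap of 0.34. Both genes were divided at their largest gap, which would give 2 sets for any gene and was done for these 2 alone. Array 3 was thus low for Fndc3c1 and high for Srpx2, and the remaining arrays were on the same side for both. Transcripts that mark sex did not divide the arrays this way: Xist, which is transcribed from the inactive X chromosome, was between 5.08 and 5.78 in Wnt arrays 1, 5 and 7 and between 12.30 and 12.61 in the other 5. Arrays with low and with high Xist occurred in both sets of Fndc3c1.

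P2rx2 had the same SD as Fndc3c1 to within 0.01 (0.97 and 0.98) but ordered the arrays differently: it was lowest in arrays 4 (9.11) and 1 (9.79) and highest in arrays 3 (11.99) and 5 (11.68). Mybpc1 was highest in array 3 (12.43) and lowest in array 6 (11.53), and Otop3 highest in array 3 (11.83) and lowest in array 2 (10.77). Of the 15 pairs of the 6 genes, tested within Wnt arrays by exact permutation, none passed after adjustment over the pairs. The pair with the smallest p was Fndc3c1 with Srpx2, which varied in the same direction (exact p = 0.0105 for r and 0.0458 for rho, adjusted 0.158 and 0.487), followed by Mybpc1 with Fndc3c1, in opposite directions (exact p = 0.0617 and 0.115, adjusted 0.463 and 0.487). No pooled r is given for pairs with Fndc3c1 or Srpx2, whose arrays form separate sets. Among the other pairs, A2m and Otop3 had the highest r (0.626, exact p = 0.101, adjusted 0.467, rho 0.548 with exact p = 0.171). That r was 0.501 without arrays 7 and 8. With 8 arrays these tests leave room for relations of moderate size.

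**Figure D3:**
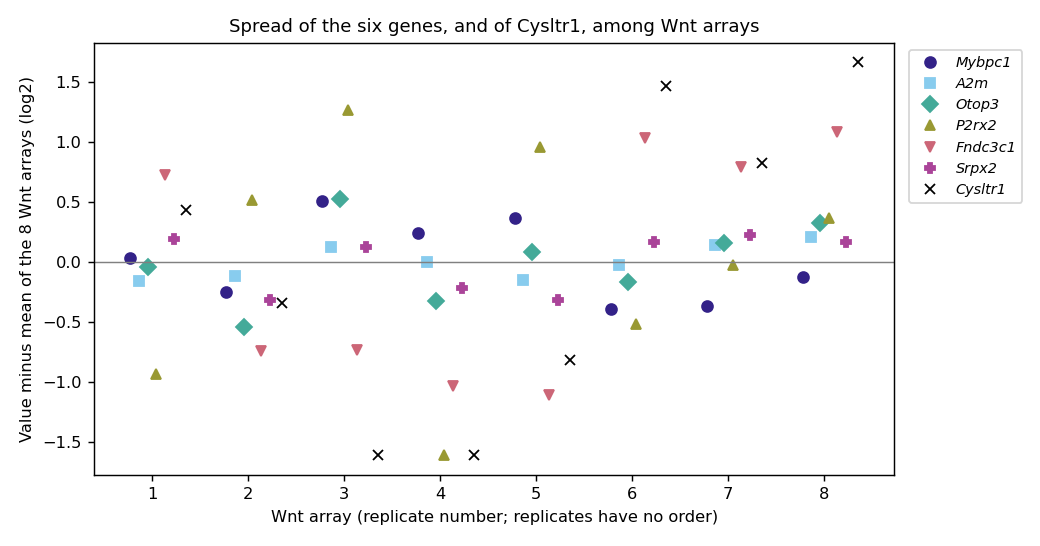
Deviation of each gene from its own mean over the 8 Wnt arrays (vertical axis, log2) by array (horizontal axis, replicate number, which has no order), with Cysltr1, the gene next to Fndc3c1, as crosses. Fndc3c1 is below its mean in arrays 2 to 5 and above it in arrays 1, 6, 7 and 8, as is Cysltr1, while P2rx2 ranges as widely in another order.

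To see whether whole gene families were bright in Wnt tumours, 42 relatives, receptors and partners were listed, of which 38 were measured. Against hindbrain 11 were called higher and 7 lower (47.4% called, against 45.3% of all genes, 23.2% higher and 22% lower, with a median difference of 0.078 against -0.023), and against Shh 12 were called higher and 3 lower (39.5% against 35.8%, 18% higher and 17.8% lower, median 0.086 against -0.002). The share called higher was 28.9% against hindbrain and 31.6% against Shh, beside the 23.2% and 18% of all genes. The split of all called genes depended on scaling: 51.3% of genes called against hindbrain were higher, but 34.9% with arrays shifted to the same median over genes (a shift of 0.11 between these groups) and 59.9% with the median taken over all probe sets. Against Shh the share was 50.3%, 45.8% and 62.2%.

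P2rx2 belongs to the P2X receptors, the ATP-gated channels. Of the 6 others, none was called higher in Wnt than in hindbrain and 2 were lower: P2rx1, the receptor of platelets and smooth muscle (-1.22 ± 0.13, adjusted p = 2.87e-08), and P2rx7, the receptor of microglia and macrophages (-0.51 ± 0.17, adjusted p = 0.0152). P2rx1 ran through 6.27, 7.06 and 7.44 in hindbrain, 6.33, 6.49 and 6.82 in Shh and 5.58, 5.73 and 5.98 in Wnt arrays (lowest, median, highest), below both other groups without overlap. Of 9 microglia markers, 9 were lower in Wnt than in hindbrain (mean log2 value of the markers 7.45 to 9.30 against 10.23 to 11.26). Against Shh 1 of them was higher, 1 lower and 7 not called. Of 5 smooth muscle markers, 2 were lower than in hindbrain and none higher, while 4 were higher than in Shh and none lower. The part of these cells was not tested. Against Shh, P2rx7 was higher by 0.53 ± 0.17 (adjusted p = 0.0142) and P2rx6 by 0.46 ± 0.16 (adjusted p = 0.0272). Leaving out any 1 of Wnt arrays 3, 6 and 7 or Shh arrays 3 and 8 ended the call of P2rx6 (0.39 to 0.42, adjusted p = 0.0536 to 0.0665). P2rx3, the usual partner of P2rx2 in sensory neurons, had medians of 5.12, 5.08 and 5.12 in hindbrain, Shh and Wnt, under the control level, and P2rx4 and P2rx5 were not called, though P2rx4 was called lower than in Shh without Shh array 5 (-0.41, adjusted p = 0.0336).

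The otopetrins Otop1 and Otop2 were both called higher in Wnt arrays, with smaller differences than the 5.19 and 5.49 for which Otop3 was chosen. Otop1 had medians of 6.20 in Wnt against 5.77 in both other groups, a difference of 0.53 ± 0.11 from hindbrain (adjusted p = 0.000463) and 0.56 ± 0.11 from Shh (adjusted p = 0.000336). Otop2, which lies near Otop3 in the genome with Ush1g between them, had medians of 6.20, 5.86 and 6.42, with 0.32 ± 0.093 from hindbrain (adjusted p = 0.00593) and 0.64 ± 0.093 from Shh (adjusted p = 4.75e-06). The call of Otop2 against hindbrain ended when arrays were shifted to the same median (0.21, adjusted p = 0.0654).

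No measured relative of Mybpc1 in its own family was called higher in Wnt arrays. Of these, Mybpc3, the cardiac form, was lower in Wnt than in hindbrain (-0.58 ± 0.12, adjusted p = 0.000323), and Mybpc2, the fast skeletal form (-0.11 ± 0.12), and Mybphl (-0.17 ± 0.095) were not called. Mybpc2 did not pass the control level in any array. Of 10 sarcomere genes, among them the slow-fibre genes Myh7, Tnnt1, Tnni1, Tnnc1, Myl2 and Myl3, 1 was called higher against hindbrain and 2 against Shh. Actn2, an actinin of the Z-disc, was in both counts (0.77 ± 0.28, adjusted p = 0.0246, and 1.16 ± 0.28, adjusted p = 0.00172), and Myl2 was higher than Shh by 0.43 ± 0.090 (adjusted p = 0.000457). The call of Actn2 against hindbrain ended without Wnt array 6 (0.59), Wnt array 7 (0.68) or hindbrain array 8 (0.69). Of 7 skeletal muscle markers, the one called higher in Wnt than in either group was Myh1 (5.43 against 4.37 in hindbrain and 4.44 in Shh). Myh4 was under the control level in all 24 arrays and Mylpf in all but 1, and the mean of the 7 was 5.50 to 5.68 in Wnt, 5.31 to 5.79 in Shh and 5.41 to 5.63 in hindbrain arrays.

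Around A2m, the related genes differed in level and in call. Mug1 and Mug2 (murinoglobulins, which lie beside A2m), Pzp and the complement gene Hc were not called in Wnt against either group, and no array of Mug1 or Mug2 passed the control level. Leaving out 1 array made small differences from hindbrain pass, for Mug1 without hindbrain array 1 (-0.30) or 7 (-0.32) or Shh array 6 (-0.26), and for Hc without hindbrain array 7 (-0.25), Wnt array 6 (-0.24) or Shh array 2 or 6 (-0.22). Cd109, a membrane-bound relative that binds TGF-beta, ran through 5.02, 5.35 and 5.74 in hindbrain, 6.78, 8.03 and 9.32 in Shh and 8.73, 9.08 and 9.73 in Wnt arrays. It was higher in Wnt than in hindbrain by 3.73 ± 0.23 (adjusted p = 2.67e-12) and than in Shh by 0.96 ± 0.23 (adjusted p = 0.00214). It was also higher in Shh than in hindbrain by 2.77 ± 0.23. Only 4 of 8 hindbrain arrays of Cd109 passed the control level. C4b, a complement component of the same family, was raised in both tumours over hindbrain, by 1.98 ± 0.28 in Wnt and 2.23 ± 0.28 in Shh, with no call between the tumours (-0.25 ± 0.28, adjusted p = 0.534). Lrp1, the receptor that takes up A2m complexes, was higher in Wnt than in hindbrain by 0.77 ± 0.14 (adjusted p = 7.41e-05) and than in Shh by 0.78 ± 0.14 (adjusted p = 0.000105).

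For Fndc3c1, the relative Fndc3b was higher in Wnt arrays by 0.83 ± 0.067 over hindbrain and 0.52 ± 0.067 over Shh (adjusted p = 2.17e-10 and 9.16e-07), with no overlap in either case (10.53 to 10.85 in Wnt). Fndc3a was lower than hindbrain by -0.33 ± 0.088 (adjusted p = 0.00315) and did not differ from Shh past the threshold (-0.03 ± 0.088).

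The partners of Srpx2 moved in both directions. Plaur, the urokinase receptor that Srpx2 binds, was lower in Wnt than in hindbrain by -0.80 ± 0.29 (adjusted p = 0.0268), and this call ended without Wnt array 5 (-0.74) or hindbrain array 3 (-0.68), 4 (-0.64) or 6 (-0.59). Plau, urokinase itself, was lower by -2.18 ± 0.32 (adjusted p = 2.71e-06), with 8.72, 10.01 and 11.36 in hindbrain and 7.10, 7.92 and 8.65 in Wnt arrays, and was not called against Shh (-0.54 ± 0.32). Adamts4, a matrix protease that binds Srpx2, was higher by 1.94 ± 0.20 and 0.61 ± 0.20 (adjusted p = 1.23e-08 against hindbrain and 0.0171 against Shh). Met, the receptor of hepatocyte growth factor, was higher by 1.88 ± 0.21 and 1.20 ± 0.21 (adjusted p = 3.85e-08 and 4.80e-05). Only 4 of 8 hindbrain arrays of Met passed the control level. Plat, tissue plasminogen activator, was higher by 0.46 ± 0.099 and 0.32 ± 0.099. Foxp2, a transcription factor reported to repress Srpx2, was lower in Wnt than in Shh by -1.68 ± 0.19 (adjusted p = 1.73e-07), with 4.69, 5.10 and 5.63 in Wnt and 5.97, 6.55 and 7.78 in Shh arrays. Against hindbrain its difference was -0.52 ± 0.19 (adjusted p = 0.0299), a call that ended without Wnt array 3 (-0.48) or 6 (-0.47) or hindbrain array 8 (-0.50). Foxp2 passed the control level in only 1 of 8 Wnt arrays. The protease Ctsb was lower than in Shh (-0.52 ± 0.15, adjusted p = 0.00912). Hgf was called higher than hindbrain (0.86 ± 0.34, adjusted p = 0.0424), a call that 10 of the 24 single-array omissions ended, as did the shift of arrays to the same median (0.75, adjusted p = 0.0651).

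**Figure D4:**
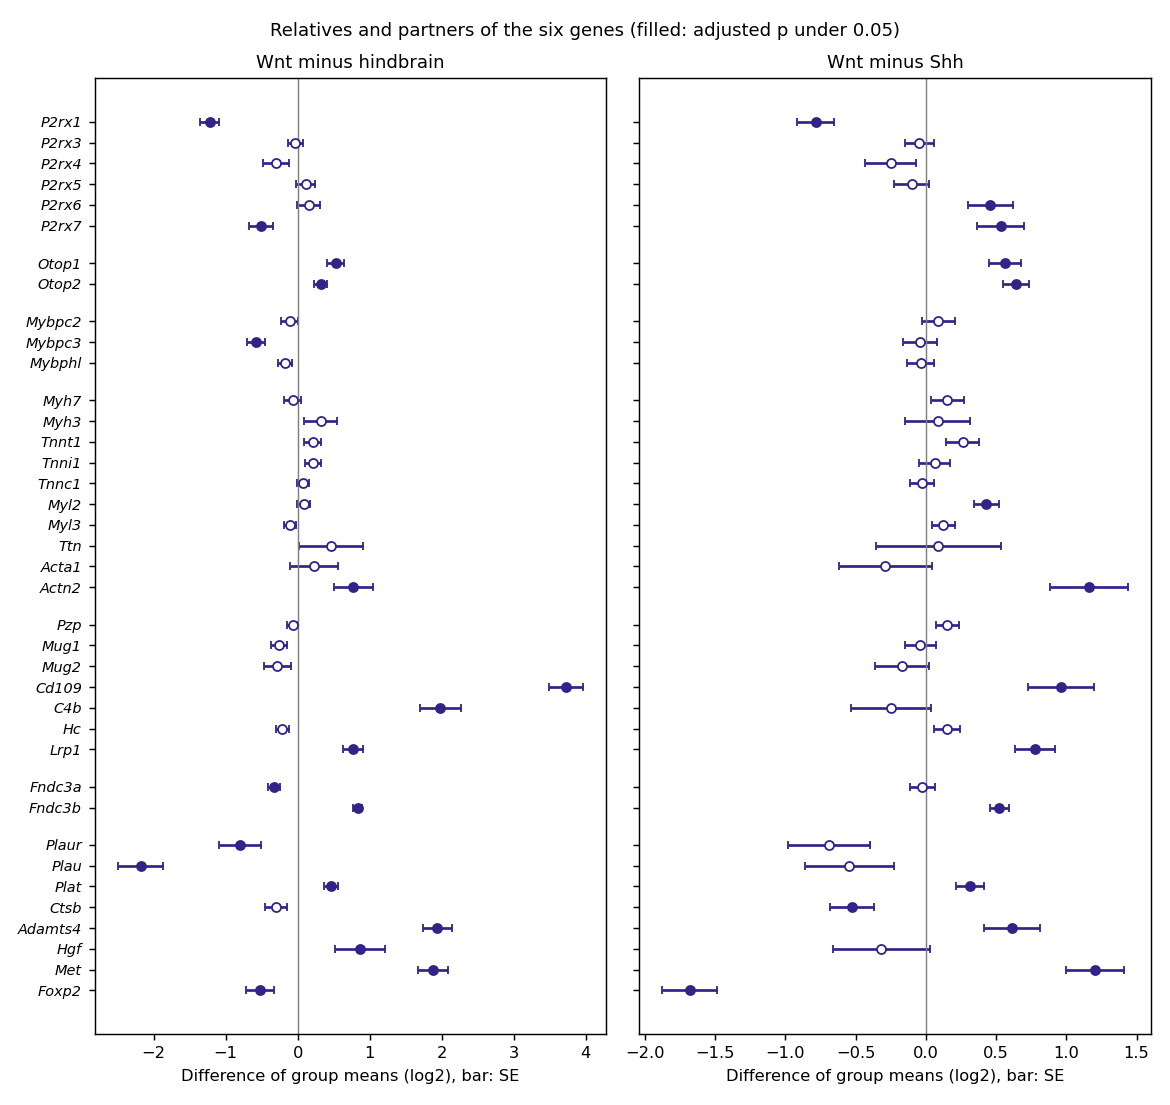
Differences of group means (horizontal axes, log2, bars SE) of the 38 measured relatives and partners, Wnt minus hindbrain on the left and Wnt minus Shh on the right, with filled points for an adjusted p under 0.05. The largest difference is that of Cd109, at 3.73. The 6 genes, which were chosen for large differences, are at 4.60 to 6.34.

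Genes next to each other can be bright together, so the 3 nearest measured genes on each side of each gene were read. Of these 36, 14 were called higher and 9 lower in Wnt than in hindbrain (63.9%, against 45.3% of all genes), and 8 higher and 7 lower than in Shh (41.7% against 35.8%). Differences from Shh ran from -1.83 to 2.38, with a median of 0.018. All were below that of the gene they lie beside, from which nothing is read, since the 6 genes were chosen for large differences. The largest was that of Cysltr1, a leukotriene receptor next to Fndc3c1, at 2.38 ± 0.38 (adjusted p = 1.91e-05). It was not called against hindbrain (0.88 ± 0.38, adjusted p = 0.0613), though it was without Wnt array 3 (1.11), 4 (1.11) or 5 (1.001). Cysltr1 had 9.70, 10.73, 10.09 and 10.93 in Wnt arrays 1, 6, 7 and 8 and 8.93, 7.66, 7.66 and 8.45 in arrays 2, 3, 4 and 5. Its highest arrays were thus those of the upper set of Fndc3c1. The values of Cysltr1 were spread, with no wide gap between 8.93 and 9.70, and so did not form 2 sets. This likeness was singled out after the values had been seen. The gene on the other side, Fnd3c2, stayed at control level (means of 3.17 to 3.26).

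Beside Srpx2, Tspan6, which encodes a tetraspanin, was higher in Wnt arrays (12.46 to 12.93) than in Shh (10.36 to 11.23) and hindbrain arrays (8.59 to 9.30), by 1.89 ± 0.12 and 3.83 ± 0.12, and it was higher in Shh than in hindbrain, as Srpx2 was, by 1.94 ± 0.12. Tnmd, the tendon gene tenomodulin, was higher by 1.93 ± 0.31 and 1.85 ± 0.31, with Wnt values spread from 4.84 to 8.23. The Tnmd means in Shh (4.28) and hindbrain (4.35) were under the control level. Pcdh19, a protocadherin on the same side, was lower (-1.39 ± 0.21 and -0.99 ± 0.21). Beside Otop3, Ush1g was higher by 1.30 ± 0.14 over Shh and 1.19 ± 0.14 over hindbrain, with Wnt values of 7.29 to 8.62. Around P2rx2, Pole, a subunit of a replicative DNA polymerase, was raised in both tumours over hindbrain (2.65 ± 0.25 in Wnt and 2.75 ± 0.25 in Shh). Pole was not called between the tumours (-0.10 ± 0.25), and its hindbrain mean (5.12) was under the control level. The nearest gene on either side of Mybpc1 (Chpt1, 0.79 ± 0.10, and Spic, -0.79 ± 0.36 and not called) and of A2m (Iqsec3, 0.009 ± 0.14, and Mug1, -0.04 ± 0.11, neither called) showed no difference over 1 between Wnt and Shh. Spic was called lower without Shh array 5 (-0.97) or 8 (-0.94).

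**Figure D5:**
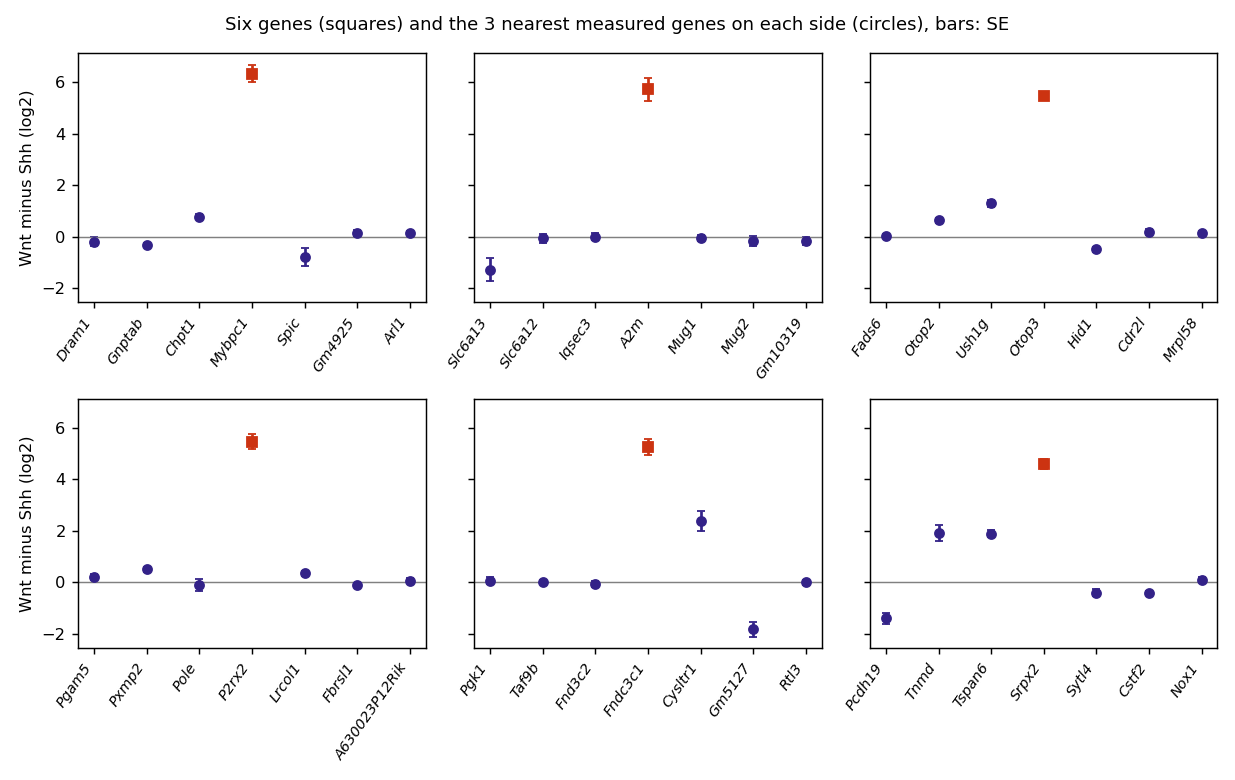
Difference of Wnt minus Shh (vertical axes, log2, bars SE) for each of the 6 genes (squares) and the 3 nearest measured genes on each side (circles), in genome order. The squares, of genes chosen for large differences, stand at 4.60 to 6.34, and all circles lie between -1.83 and 2.38.

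Each gene was also set against 19277 others for likeness of pattern, by Pearson's r over the 24 arrays. The 6 genes themselves and genes without a proper name (such as Gm, Rik or LOC symbols) were left out of the 19277. Groups of such different level dominate this measure, which is given as a description. The most alike were Rmst for Mybpc1 (r = 0.978), Adgrv1 for A2m (0.976), Wnt16 for Otop3 (0.994), Rabepk for P2rx2 (0.988), Kremen1 for Fndc3c1 (0.984) and Echdc2 for Srpx2 (0.987). Kremen1 encodes a receptor of the Wnt inhibitor Dkk1. Grik1, a kainate receptor, was among the first 3 for Mybpc1, Otop3 and P2rx2. Rabepk and Kremen1 show that likeness of order is not likeness of size: Rabepk had means of 7.36, 7.33 and 8.75 in hindbrain, Shh and Wnt arrays, and Kremen1 9.44, 9.49 and 10.72.

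Over the 8 Wnt arrays alone, the comparison was with the 14953 of these genes whose Wnt mean was above the control level. The most alike were Maml2 for Mybpc1 (r = 0.976), Prkar1a for A2m (0.924), Lyrm9 for Otop3 (0.984), Nhs for P2rx2 (0.971), Gtf2b for Fndc3c1 (0.990) and Nectin3 for Srpx2 (0.986). No gene was among the first 3 of both rankings for any of the 6. These are the highest of many values over 8 arrays and carry no test.

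Lists of markers of other cells place the 6 genes in what else the Wnt arrays held. Of 9 beta-catenin feedback genes, 8 were called higher and 1 lower in Wnt than in hindbrain (median 1.58) and 7 higher than in Shh (median 1.93). Their mean log2 value was 10.20 to 11.11 in Wnt, 8.45 to 9.01 in Shh and 8.72 to 8.96 in hindbrain arrays. The lower one was Lef1 (-0.37 ± 0.12). Of 6 choroid plexus markers, Otx2 (10.96 in Wnt against 6.03 in hindbrain and 7.17 in Shh), Aqp1 (11.37 against 6.96 and 8.30) and Clic6 (10.70 against 7.02 and 6.67) were higher than in either group. Ttr (6.07 against 9.27 and 7.47) and Kl (5.995 against 8.01 and 6.42) were lower than in hindbrain and not called against Shh. Folr1 (6.84 against 7.10 and 6.49) was not called against either group. The mean log2 value of the 6 choroid plexus markers was 8.52 to 8.79 in Wnt arrays, 6.52 to 8.15 in Shh and, unevenly, 6.22 to 9.503 in hindbrain arrays. Fabp7, whose promoter drives Cre, was at 9.84 in Wnt, 8.52 in hindbrain and 11.56 in Shh arrays. Of the 5 radial glia markers that include Fabp7, 2 were called higher and 2 lower in Wnt than in hindbrain. Against Shh 4 of them were called lower and 0 higher. Of 10 fibroblast markers, 7 were higher and 1 lower than in hindbrain and 3 higher and 3 lower than in Shh, and of 10 pericyte markers 6 and 7 were lower, with none higher. Which of the cells on the beads held the RNA of the 6 genes was not tested.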

How the data were processed

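Per the labels, biotinylated cRNA from sorted cells was hybridised to Affymetrix arrays. The authors deposited log2 values, as their range of 1.73 to 14.01 shows, for 41345 probe sets. Partek 6.6 is named in the submitters' processing notes without a role, and no source used here states the background correction, normalization or genome build. Of the probe sets, 190 were controls, 23521 had 1 gene symbol, 1814 several and 15820 none. Each of 22180 genes was represented by the single-symbol probe set with the highest mean over the arrays. No further normalization was applied. Groups were compared in R 4.3.3 by limma 3.58.1 (functions lmFit and eBayes, no trend, 1 factor, all 24 arrays), with Benjamini-Hochberg adjustment over all genes, a threshold of 0.05 and two-sided tests. Slopes were fitted the same way within the 8 Wnt arrays. The procedure was tested on simulated data. No pair of arrays was so alike as to be a duplicate (highest r within a group 0.994). Precision is limited by the number of arrays.

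The 6 genes and all lists were chosen with earlier results of these data known. Named were the 6 genes, the listed relatives, the 3 nearest measured genes on each side, the 3 most alike genes over 24 arrays and over the 8 Wnt arrays, the 10 genes with the highest smaller difference, and markers whose values stand beside a result. The text gives part of these. Alternatives were the mean of a gene's probe sets, every probe set, quantile normalization, median shifts, array weights, a variance trend, a filter on dim genes, fits to 2 groups at a time, a replicate block, the endothelial mean as a covariate, other endothelial means, a common slope and leaving out arrays. The median shift over all probe sets, leaving out Wnt arrays 1 and 8 together, and running the alternatives on neighbours and marker lists were added with the data in view.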

Additional observations from a re-analysis of the deposited data

Results flagged for a closer look

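None of the 6 genes had an array that stood apart from the rest of its group by Dixon's test at the 95% level. Over the 6 genes, their relatives and the endothelial marker mean 135 groups of 8 arrays were checked, of which chance alone marks about 1 in 20, and 6 were marked, all among the relatives. Ttn, the giant sarcomere protein titin, was 9.88 in Wnt array 1 against 5.83 in the next array. Actn2 was 6.32 in Shh array 2 against 5.24 in the next. Mug2 was 4.66 in Shh array 6, P2rx3 5.56 in hindbrain array 7 and Pzp 5.36 in Wnt array 6, each the highest of its group. Myh7 was 4.81 in Wnt array 2, the lowest of its group.

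The change from hindbrain differed between the tumours, by the test of Wnt against Shh, for 15 of the 38 relatives. Those with a higher value in Wnt were Met (1.20), Actn2 (1.16), Cd109 (0.96), Lrp1 (0.78), Otop2 (0.64), Adamts4 (0.61), Otop1 (0.56), P2rx7 (0.53), Fndc3b (0.52), P2rx6 (0.46), Myl2 (0.43) and Plat (0.32). Those with a lower value in Wnt were Foxp2 (-1.68), P2rx1 (-0.78) and Ctsb (-0.52). These comparisons share the Wnt arrays, and 35.8% of all genes were called in the same test.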

How the results depend on the processing

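The differences of the 6 genes between Wnt and the other groups kept their sign under every alternative. Nothing is read from this, since the genes were chosen for large differences. The call of Srpx2 between Shh and hindbrain, which was not part of the choice, held under every alternative. The endothelial mean as a covariate moved the most: against hindbrain Fndc3c1 became 4.69 and Srpx2 5.44, called relatives 6 higher and 4 lower, neighbours 7 higher and 2 lower, and all genes called 5079. Against Shh Fndc3c1 became 4.46, relatives 6 higher and all genes called 3959. Under it 4 single-gene values changed sign: Hgf against hindbrain (-0.22), Pcdh19 against hindbrain (0.26), and Slc6a13 against hindbrain (0.51) and Shh (0.27). The covariate lies apart in the groups, so this fit extrapolates. With arrays shifted to the same median, 12 relatives were lower than in hindbrain, in place of 7, and Otop3 was called between Shh and hindbrain (-0.38).

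The 147 genes with a slope on the endothelial mean became 370 with array weights, 96 with Cdh5 and Eng alone, 1325 with a common slope over 24 arrays, 80 with the median of all probe sets and 0 without both Wnt arrays 1 and 8. Leaving out 1 array gave 0 to 173 genes. It gave -1.87 to -1.27 for the slope of Fndc3c1, called only without Wnt array 6, and -0.39 to -0.24 for Otop3 in Shh minus hindbrain, called only without Shh array 4. The causes were not tested.

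By correlation, array numbers were not found to pair the samples: correlations of deviations of same-numbered arrays ran from -0.146 to 0.282, and 1, 3 and 2 of 8 numbers matched best with their own. Xist, however, was low in arrays 5, 7 and 8 of both hindbrain and Shh, though in arrays 1, 5 and 7 of Wnt. Whether samples were collected in matched sets is not known from the labels. A fit with the replicate block left the differences as they were, called 9851 genes for Wnt minus hindbrain in place of 10040, and changed no call of the 6 genes.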
